A study of Mus musculus with 16 samples.

Results

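miR-223 and miR-142a are microRNAs of blood cells, and both arms of each hairpin were followed here in extracellular vesicles (EVs) captured from bone marrow plasma. The 4 entries, mmu-miR-223-3p, mmu-miR-223-5p, mmu-miR-142a-3p and mmu-miR-142a-5p (mmu for mouse, left out below), were taken by name from a table of 1915 mature microRNAs, and all 4 were among the 234 that passed the filter on low counts. All mice were 6 months old, on the C57BL/6N background, and carried the CAGS-Snorkel reporter, through whose HA tag the EVs were captured. In 6 mice (genotype CAGS-Snorkel//Ocn-Cre) the Cre came from the osteocalcin promoter, used by mature osteoblasts and osteocytes. In the other 10 (CAGS-Snorkel//Prx1-Cre) it came from a Prx1 promoter used by early limb mesenchyme, whose later descendants stay marked. These groups are called Ocn and Prx1, and a library is named by its group and number. The background of the capture is unknown, as neither plasma from mice lacking Cre nor plasma without HA selection was analysed here.

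A microRNA gene is transcribed as a hairpin, from which the 5p and 3p arms are cut as a short duplex, and usually 1 arm is loaded into Argonaute while the other is largely degraded. Bases 2 to 8 of the loaded strand, the seed, choose its target messenger RNAs by pairing. miR-223 is made mainly in cells of the myeloid lineage, above all neutrophils, where it restrains progenitor growth and inflammatory activation. miR-142 is expressed across blood cell lineages and is commonly used to recognise RNA from them, and neither is a marker of osteoblasts.

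The mature sequences are shown because the arms of a hairpin must be told apart by them. They are printed 5′ to 3′ from RefSeq (GRCm38.p6), with the seed in capitals.
miR-223-3p: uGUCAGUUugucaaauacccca
miR-223-5p: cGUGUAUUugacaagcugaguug
miR-142a-3p: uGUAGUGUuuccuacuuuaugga
miR-142a-5p: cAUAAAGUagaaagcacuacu
The 4 seeds differ from each other, and none was shared with another of the 1623 table entries that matched a RefSeq mature sequence. Both 3p arms begin with U and both 5p arms with C, and the GC content ran from 33.3% in miR-142a-5p to 43.5% in miR-223-5p.

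The hairpins come from separate chromosomes. They are printed with both arms in capitals, to show that each arm lies on its own side of the loop.
Mir223: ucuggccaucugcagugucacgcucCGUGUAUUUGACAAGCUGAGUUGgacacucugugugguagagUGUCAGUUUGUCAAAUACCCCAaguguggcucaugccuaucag
Mir142: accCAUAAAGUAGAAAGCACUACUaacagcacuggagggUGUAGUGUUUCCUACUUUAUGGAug
In GRCm38, Mir223 occupies chrX:96242817-96242926 on the plus strand, inside an exon of the noncoding transcript F630028O10Rik of the same strand (GENCODE M21). Mir142 occupies chr11:87756864-87756927 on the plus strand, in an intron of the lincRNA Mir142hg. The minus strand there carries Mir142b, whose mature form is complementary to miR-142a-3p over 20 bases.
miR-142b: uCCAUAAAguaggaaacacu
This antisense entry had 4 counts in all 16 libraries together, at most 1 in any, against 380149 counts of miR-142a-3p.

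miR-142a-3p was the most abundant of the 4 and miR-223-5p the least, and the order miR-142a-3p, miR-223-3p, miR-142a-5p, miR-223-5p held in each of the 16 libraries. Levels are given as CPM (counts scaled so that each library sums to 1000000), unless scaling with TMM factors is named. Adaptor ligation favours some sequences over others, so a level is a share of counts rather than of molecules. A share of counts also cannot tell fewer vesicles of a source from less of the microRNA per vesicle. Together the 4 entries held 5.51% ± 2.0 (SD, n = 6) of the counts of an Ocn library and 5.26% ± 0.90 (SD, n = 10) of those of a Prx1 library.

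miR-142a-3p ran from 30437 CPM in Ocn 4 through a median of 37533 to 77658 CPM in Ocn 3, with a mean of 42848 ± 17440 (SD, n = 6). In Prx1 it ran from 32979 CPM in Prx1 6 through a median of 37761 to 48716 CPM in Prx1 3, with a mean of 38941 ± 5727 (SD, n = 10). The groups overlapped, and their medians lay close together. It was the 3rd most abundant of all entries in Ocn 3, the 8th in each other Ocn library, and the 6th to the 8th in Prx1. Its coefficient of variation was 40.7% in Ocn, 11.4% there without Ocn 3, and 14.7% in Prx1, beside medians over all entries tested of 22.3% in Ocn and 27.4% in Prx1.

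miR-223-3p ran from 6180 CPM in Ocn 4 through a median of 7999 to 9975 CPM in Ocn 3, with a mean of 8184 ± 1385 (SD, n = 6). In Prx1 it ran from 6976 CPM in Prx1 6 through a median of 9032 to 14667 CPM in Prx1 3, with a mean of 9613 ± 2454 (SD, n = 10). The lowest and highest library of each group were thus the same for both 3p arms. The Prx1 values reached higher, with 4 of 10 Prx1 libraries above every Ocn library, and the others lay within the Ocn range.

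The less abundant arms had far fewer counts. miR-142a-5p, which is also loaded into Argonaute in blood cells, ran from 2449 CPM in Ocn 4 through a median of 3364 to 6726 CPM in Ocn 3. In Prx1 it ran from 1957 CPM in Prx1 7 through a median of 3781 to 5603 CPM in Prx1 3, so 8 of 10 Prx1 libraries lay within the Ocn range. miR-223-5p, the minor strand of its duplex, ran from 275 CPM in Ocn 2 through a median of 309 to 363 CPM in Ocn 5. In Prx1 it ran from 216 CPM in Prx1 5 through a median of 298 to 341 CPM in Prx1 6. It rested on 72 to 557 counts per library, and its groups overlapped too.

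**Figure D1:**
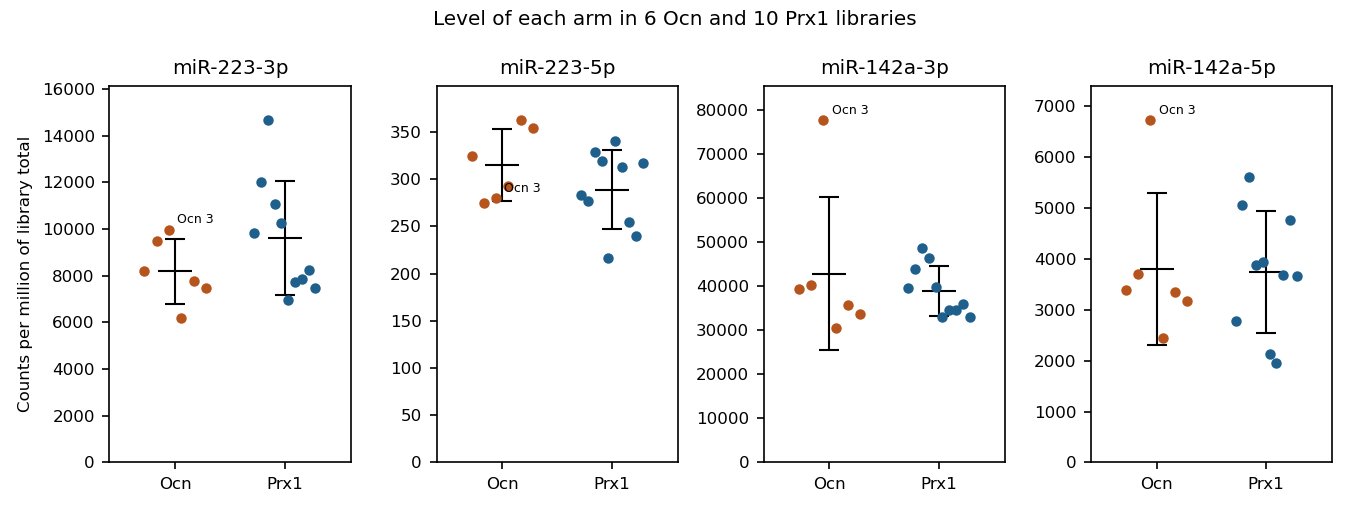
Level of each arm (y axis, CPM) in 6 Ocn and 10 Prx1 libraries, 1 point per library, with the mean and SD as black bars. The groups overlap in every panel, and Ocn 3 stands far above the other Ocn libraries for both arms of miR-142a but not for those of miR-223.

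None of the 4 arms passed the test between the drivers, which asks whether EVs captured with the osteoblast driver carried other amounts than those captured with the limb mesenchyme driver. With edgeR's quasi-likelihood test and Benjamini-Hochberg adjustment over 234 entries (threshold 0.05), 13.7% of all entries tested passed in either direction. The fitted fold changes below use TMM scaling. The log2 fold change of Ocn over Prx1 was -0.27 for miR-223-3p (SE 0.14, 95% interval -0.57 to 0.03, edgeR adjusted p = 0.229). It was 0.09 for miR-142a-3p (SE 0.15, 95% interval -0.21 to 0.39, edgeR adjusted p = 0.737). For the minor arms it was 0.10 for miR-223-5p (interval -0.16 to 0.35) and -0.03 for miR-142a-5p (interval -0.45 to 0.40), with edgeR adjusted p of 0.688 and 0.935. None of the 4 had an unadjusted edgeR p under 0.05 either, where 26.5% of all entries did, and miR-223-3p was the closest at 0.0766. DESeq2 and voom also passed 0 of the 4. With the title number as a block in the edgeR model, miR-223-3p did pass (log2 fold change -0.41, edgeR adjusted p = 0.0474), though whether the numbers pair the libraries is unknown. Prx1 7 to Prx1 10 share their number with no Ocn library, so with this block they do not enter the fold change. Without the block, all 4 intervals hold 0, and that of miR-223-3p lies almost wholly below it.

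The miR-142a values lay near 0 and moved with single libraries. Without Ocn 3 the log2 fold change of miR-142a-3p changed sign to -0.07 (edgeR adjusted p = 0.683), which no other left-out library did, and that of miR-142a-5p was -0.16 (edgeR adjusted p = 0.588). Depth moved with the group, at 582660 to 1536421 counts per library in Ocn and 225273 to 813770 in Prx1. With every library thinned to the shallowest total, the log2 fold change was -0.24 for miR-223-3p, 0.07 for miR-223-5p, 0.11 for miR-142a-3p and -0.0032 for miR-142a-5p, with edgeR adjusted p of 0.308 to 0.996. With the log10 total as a covariate, miR-223-3p was at -0.07 and miR-142a-3p at 0.41 (edgeR adjusted p = 0.895 and 0.290).

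Both 3p arms were high and low in the same libraries, although their genes lie on separate chromosomes. Over the 16 libraries, log2 CPM of miR-223-3p and miR-142a-3p had a Spearman rho of 0.95 (permutation p = 1e-05, the smallest that the permutations can give, adjusted p = 6e-05 over 6 pairs of arms). Pearson's r was 0.67 (permutation p = 0.00513, adjusted p = 0.0103), and 0.70 without Prx1 3 and Prx1 2, the libraries farthest from the median of miR-223-3p. Within groups, rho was 1.00 over the 6 Ocn libraries and 0.99 over the 10 Prx1 libraries, with r of 0.80 and 0.97. Ocn 3 followed in rank but not in size, and without it r over 15 libraries was 0.96, a check chosen after seeing the data. Ranked by Spearman rho over the 16 libraries, each 3p arm had the other as its nearest of 233 entries and miR-142a-5p as the second, with rho of 0.79 to miR-223-3p and 0.80 to miR-142a-3p. The median rho over all 233 entries was 0.11 for miR-223-3p and 0.09 for miR-142a-3p. CPM share the library total, which adds some relation of its own.

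miR-223-5p did not follow the other arm of its own hairpin. Its rho to miR-223-3p was -0.34 (permutation p = 0.200, adjusted p = 0.240, r = -0.19 with permutation p = 0.474), and -0.54 within Ocn and -0.14 within Prx1. With TMM-scaled CPM, a setting added after seeing the data, the rho over the 16 libraries passed the threshold at -0.58 (permutation p = 0.0208, adjusted p = 0.0250) while r did not (-0.31, permutation p = 0.236, adjusted p = 0.236), so whether a negative relation was called depended on the scaling. In CPM of the library total the rho was 194th of 233 from the top, whereas the arms of miR-142a had a rho of 0.80 (permutation p = 0.00035, adjusted p = 0.0007) and an r of 0.74 (permutation p = 0.00041, adjusted p = 0.00246). Without Ocn 3 and Prx1 3, the libraries farthest from the median of miR-142a-3p, that r was 0.56. In Prx1 the arms of miR-142a were less tightly tied than in Ocn, with r of 0.62 and 0.98, and that difference was not tested.

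**Figure D2:**
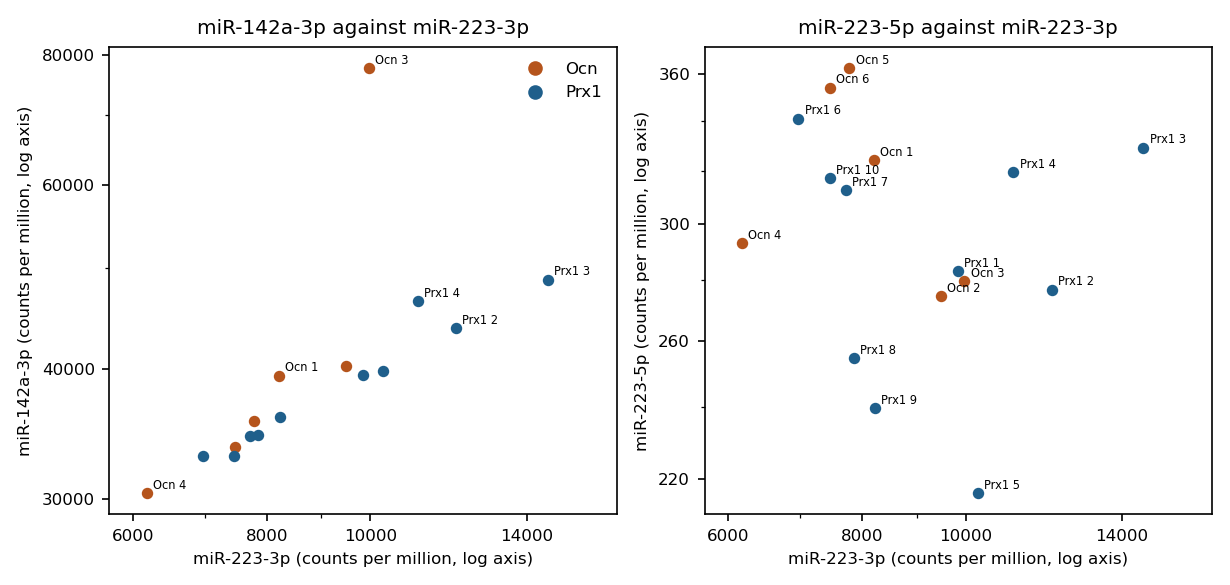
Level of miR-142a-3p (left) and miR-223-5p (right) against miR-223-3p, both axes in CPM on log scales, 1 point per library coloured by group. On the left 15 libraries lie along a line with Ocn 3 above it, and on the right no such line is seen.

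A second measure of likeness, the SD over the 16 libraries of the log2 ratio to the arm, favours entries that also keep the same size of change. By it the nearest to miR-223-3p were miR-221-3p (SD 0.18), miR-361-5p (0.18) and miR-425-5p (0.19), with miR-142a-3p the 10th at 0.26. The nearest to miR-142a-3p were miR-30e-5p (0.19), miR-101b-3p (0.22) and miR-21a-5p (0.23), with miR-223-3p the 8th. The median over all entries tested was 0.49 for both, and entries with few counts have larger SDs from counting alone.

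The balance between the 3p arms differed between the drivers, but 1 library carried much of it. In each library there were 3.32 to 7.79 counts of miR-142a-3p per count of miR-223-3p, lowest in Prx1 3 and highest in Ocn 3. Averaged over the 6 Ocn libraries, the log2 ratio of miR-223-3p to miR-142a-3p, which does not depend on scaling, was -2.33 ± 0.32 (SD). Averaged over the 10 Prx1 libraries it was -2.04 ± 0.16 (SD). The difference of -0.29 was past the threshold (2-sided exact permutation test over 8008 splits, p = 0.00799, adjusted p = 0.00932 over 7 ratios), and all 6 Ocn libraries lay below the Prx1 mean. Without Ocn 3 the difference was -0.16 and missed the threshold (exact permutation p = 0.0506, adjusted p = 0.0591). The other 5 Ocn libraries ran from -2.30 to -2.09, partly within the Prx1 range of -2.24 to -1.73.

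**Figure D3:**
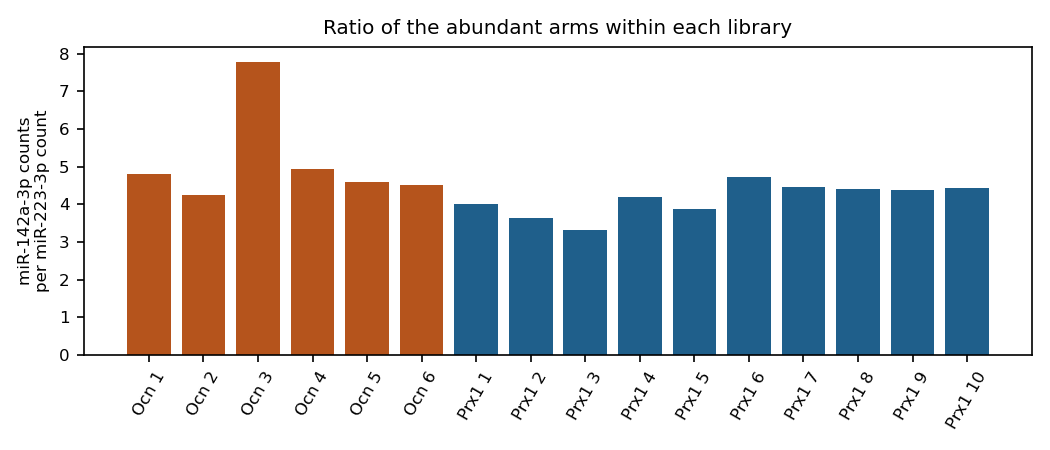
Counts of miR-142a-3p per count of miR-223-3p (y axis) in each library (x axis), Ocn in brown and Prx1 in blue. Ocn 3 has 7.79, the other Ocn libraries 4.25 to 4.92 and the Prx1 libraries 3.32 to 4.73.

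miR-223-3p was lower in Ocn beside miR-451a and beside miR-199a-5p, each 1 entry of its marker list. Its log2 ratio to miR-451a, which red cell precursors accumulate, averaged 1.71 ± 0.20 over the Ocn and 2.20 ± 0.31 over the Prx1 libraries (SD, n = 6 and 10), a difference of -0.49 (exact permutation p = 0.00362, adjusted p = 0.00634). Its log2 ratio to the mesenchymal miR-199a-5p was 3.60 ± 0.27 in Ocn and 4.25 ± 0.37 in Prx1, a difference of -0.65 (SD, n = 6 and 10, exact permutation p = 0.00162, adjusted p = 0.00379). In both, all 6 Ocn libraries lay below the Prx1 mean. miR-451a itself averaged 2552 ± 710 CPM against 2119 ± 616 CPM (SD, Ocn against Prx1) and did not pass (log2 fold change 0.22, SE 0.18, edgeR adjusted p = 0.440). miR-199a-5p was called higher in Ocn (683 ± 191 against 494 ± 75 CPM, log2 fold change 0.43, SE 0.13, edgeR adjusted p = 0.0290), so this ratio holds the change of its denominator as well. The more abundant arm of that hairpin, miR-199a-3p, did not pass (17865 ± 1678 against 16121 ± 1355 CPM, log2 fold change 0.11, SE 0.09, edgeR adjusted p = 0.461). Other entries of these lists had values of the opposite sign, so the ratios hold for the named denominators and not for a cell type. The log2 fold change was -0.38 for the red cell miR-486a-5p (SE 0.13, edgeR adjusted p = 0.0451) and -0.29 for the mesenchymal miR-214-3p (SE 0.15, edgeR adjusted p = 0.228), close to that of miR-223-3p.

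miR-142a-3p did not differ past the threshold beside miR-451a, where the difference was -0.21 on the log2 scale (exact permutation p = 0.217, adjusted p = 0.217). Beside miR-199a-5p it was lower in Ocn by -0.37 (exact permutation p = 0.00662, adjusted p = 0.00927), with 0 of 6 Ocn libraries above the Prx1 mean. miR-199a-5p was itself called higher in Ocn (log2 fold change 0.43), while miR-142a-3p was at 0.09. This difference thus holds the change of the denominator and does not show a lower miR-142a-3p. Beside miR-150-5p, which mature B and T cells express, both 3p arms were higher in Ocn, in 6 of 6 libraries against the Prx1 mean. The difference was 0.79 for miR-223-3p (exact permutation p = 0.000375, adjusted p = 0.00131) and 1.07 for miR-142a-3p (exact permutation p = 0.000125, the smallest that 8008 splits can give, adjusted p = 0.000874). miR-150-5p was itself called lower in Ocn (848 ± 228 against 1713 ± 558 CPM, log2 fold change -1.05, SE 0.20, edgeR adjusted p = 0.00125), and was listed with earlier results of these data known. Neither 3p arm was called higher by itself (log2 fold change -0.27 for miR-223-3p and 0.09 for miR-142a-3p). Both ratios thus hold mainly the change of miR-150-5p, and their p-values are not evidence of a change in the arms. miR-150-5p was the 1 entry called lower of the 12 other leukocyte microRNAs listed, while the T cell miR-181a-5p was called higher (0.61) and the lymphocyte miR-342-3p did not pass (-0.17, SE 0.20, edgeR adjusted p = 0.640).

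The 3p arm dominated both hairpins in all 16 libraries. Of the counts of miR-223, the 5p arm made up 3.81% ± 0.85 in Ocn libraries and 3.07% ± 0.87 in Prx1 libraries (SD, n = 6 and 10), with libraries from 2.06% in Prx1 5 (95% Wilson interval 1.64 to 2.58) to 4.66% in Prx1 6 (3.83 to 5.66). Of the counts of miR-142a, the 5p arm made up 8.15% ± 0.46 in Ocn and 8.67% ± 2.12 in Prx1 (SD, n = 6 and 10), from 5.37% in Prx1 7 (95% Wilson interval 5.01 to 5.75) to 11.7% in Prx1 9 (11.35 to 12.04). These intervals cover counting error only, since amplification copies may be among the counts. The Ocn libraries lay between 7.45% and 8.61% for miR-142a, and in both groups the intervals of the lowest and the highest library did not overlap.

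Arm usage did not differ between the drivers past the threshold for either hairpin. Of 44 hairpins with both arms tested, 6.82% passed with limma on the log2 ratio of 5p to 3p, and 18.2% had an unadjusted p under 0.05, among them neither of these. The ratio of miR-223 was higher in Ocn by 0.34 (SE 0.22, 95% interval -0.12 to 0.79, limma adjusted p = 0.305), and that of miR-142a was lower by a log2 difference of -0.06 (SE 0.20, interval -0.47 to 0.36, limma adjusted p = 0.843). Over the Ocn libraries the SD of the log2 ratio of miR-142a was 0.09, the smallest of the 44 hairpins, whose median was 0.39. miR-142a-5p had 2089 to 5134 counts per Ocn library, and hairpins with few counts of an arm have larger SDs from counting alone. Over the Prx1 libraries the SD for miR-142a was 0.41, the 15th smallest, with a median of 0.53. The Prx1 SD was the larger in 31 of the 44 hairpins, and Prx1 libraries had fewer counts. For miR-142a-5p these were 601 to 3879 per Prx1 library, and the intervals of Prx1 7 and Prx1 9 given above lay apart. The part of counting in these SDs was not tested.

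**Figure D4:**
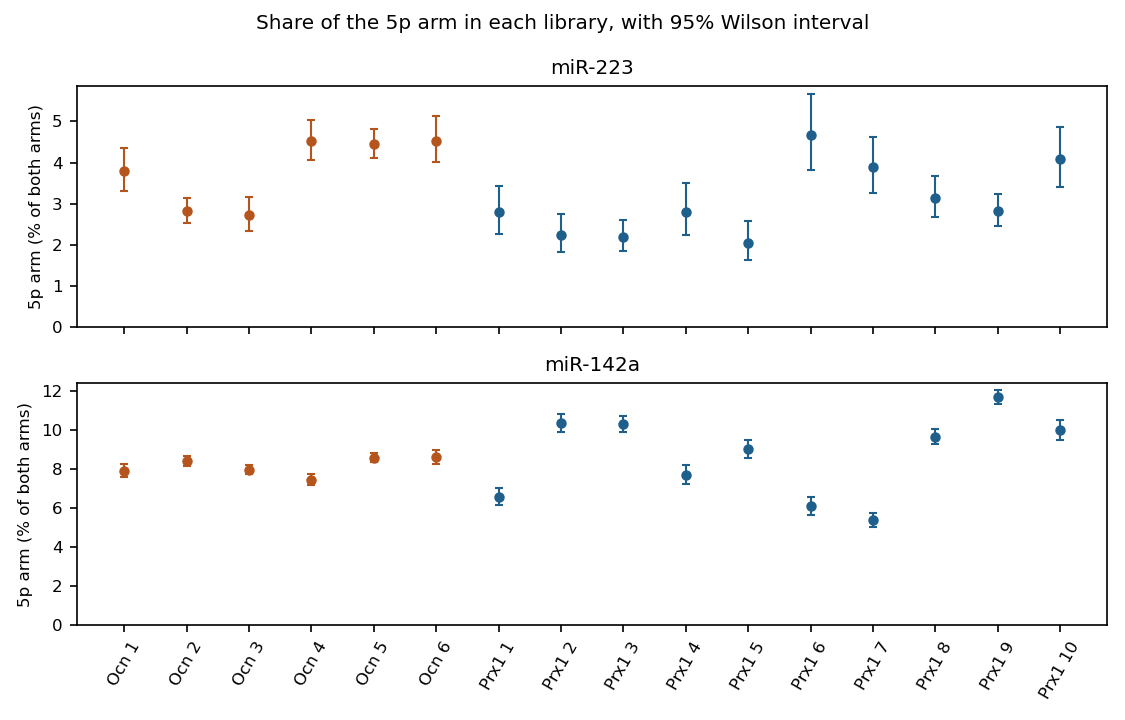
Share of the 5p arm among the counts of both arms (y axis, percent) in each library (x axis), with 95% Wilson intervals, for miR-223 (top) and miR-142a (bottom). The Ocn libraries (brown) lie between 7.45% and 8.61% for miR-142a, inside the Prx1 (blue) range of 5.37% to 11.7%.

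Other microRNAs of leukocytes gave a mixed picture. Of 12 listed, all tested, 2 were called higher in Ocn, where 5.98% of all entries were, and 1 was called lower, where 7.69% were. The median log2 fold change of the 12 was 0.02, beside 0.01 over all entries tested. The higher ones were miR-181a-5p (0.61, SE 0.11, edgeR adjusted p = 0.00125), which tunes T cell receptor signalling, and miR-27a-3p (0.66, SE 0.14, edgeR adjusted p = 0.00299), from the Mir23a cluster. The other listed entries of that cluster, miR-23a-3p (0.32, SE 0.13) and miR-24-3p (-0.00039, SE 0.12), did not pass, with edgeR adjusted p of 0.0917 and 0.999. The lower one was miR-150-5p. None of these calls held with the log10 total as a covariate, where 0 of the 234 entries passed. The inflammation-linked miR-146a-5p (-0.0010, SE 0.20) and miR-155-5p (-0.25, SE 0.12) did not pass, with edgeR adjusted p of 0.999 and 0.182, and neither did miR-21a-5p (0.04, SE 0.12).

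**Figure D5:**
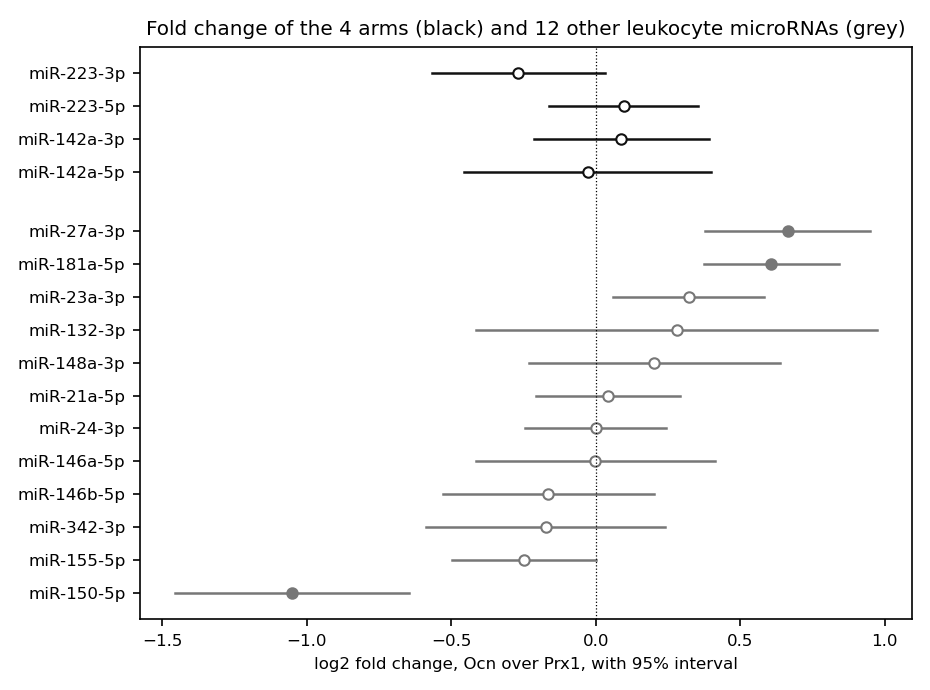
Log2 fold change of Ocn over Prx1 with its 95% interval (x axis) for the 4 arms (black) and 12 other leukocyte microRNAs (grey). Filled points passed the edgeR threshold, and the intervals of the 4 arms, whose points are all open, cross the dotted line at 0.

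Markers of other cells were present in every library beside these blood cell microRNAs. The 6 mesenchymal microRNAs listed summed to 31459 to 43099 CPM in Ocn and 26540 to 35015 CPM in Prx1, and the 5 red cell entries to 23947 to 43670 CPM in Ocn and 31873 to 47291 CPM in Prx1. The 2 endothelial entries summed to 16712 to 20837 CPM in Ocn and 12913 to 19289 CPM in Prx1. No listed marker was at 0 over all libraries, 1 of 6 mesenchymal entries was called higher in Ocn (miR-199a-5p), where 5.98% of all entries were, and 2 of 5 red cell entries lower, where 7.69% were (miR-486a-5p and miR-486b-5p, whose near-identical sequences may share counts). With the log10 total as a covariate none of these calls held. The part of these other cells in the values of miR-223 and miR-142a was not tested.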

How the data were processed

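Small RNA of 16 EV samples was sequenced with the QIAseq miRNA kit, per the labels' protocols. The deposited table holds raw counts per mature microRNA and library, with no normalization by the authors, as whole numbers with unequal column totals show. Cutadapt 1.18 and build mm10 are named per the submitters' processing notes. The aligner, the counting tool and whether molecular identifiers were collapsed: not given in the sources used here. Groups follow the titles. edgeR 4.0.16 (filterByExpr, TMM, robust quasi-likelihood F test), limma 3.58.1 for arm ratios with 0.5 added to each count, and exact permutation tests gave the comparisons. Intervals of fold changes are the value ± its SE times the t quantile. edgeR was tried on 20 simulated data sets for Ocn over Prx1 (234 entries tested on average). Of the changed entries that passed the filter, it recovered 55.5% at 1.5-fold, 89.1% at 2-fold and 99.4% at 4-fold. Of its calls 4.39% were false, and changes below 1.5-fold were not simulated. Alternatives used DESeq2 1.42.0, voom, other scalings and filters, thinning, a depth covariate, a replicate block and left-out libraries. Besides the arms, named entries are those nearest in likeness, those sharing a seed or strand, and listed markers that passed or serve as denominators. The listed miR-146a-5p, miR-155-5p, miR-342-3p, miR-214-3p, miR-199a-3p, miR-23a-3p and miR-24-3p were named after their values were seen. The members and lists were chosen with earlier results of these data known. Each library stands for 1 mouse, per the design text, and sex is not given per library.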

Additional observations from a re-analysis of the deposited data

Results flagged for a closer look

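In groups of this size, a library was singled out when its gap to the nearest other library made up an unusually large part of the group's range. Of 28 sets of values looked at in this way, 4 had such a library, where about 1 in 20 would by chance, and all 4 were Ocn 3. It had 77658 CPM of miR-142a-3p and 6726 CPM of miR-142a-5p, against means of 35886 ± 4083 and 3209 ± 465.9 CPM in the other Ocn libraries (SD, n = 5). Its log2 ratio of miR-223-3p to miR-142a-3p was -2.96, and the 4 arms held 9.46% of its counts, against 4.72% ± 0.57 in the others (SD, n = 5). These values share the counts of miR-142a-3p and are not independent. Its 5p share of miR-142a was 7.97%, within the range of the other Ocn libraries, and its miR-223-3p (9975 CPM) was the highest in Ocn only by a small margin over Ocn 2 (9485 CPM). Relative to the other Ocn libraries, miR-142a-3p was higher in Ocn 3 by 1.12 on the log2 scale, and 10 of the 234 entries tested were raised by more, among them miR-148a-3p (30059 against 11462 CPM) and miR-101a-3p (3743 against 1470 CPM), named after their values were seen. Ocn 3 was also the shallowest Ocn library, with 582660 counts, and the part of depth in this was not tested.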

How the results depend on the processing

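With the log10 total as a covariate 0 microRNAs passed in place of 32 (40 had an unadjusted edgeR p under 0.05), and 0 hairpins in place of 3 (4 unadjusted, limma). With 50 counts over both arms required, 9 of 79 hairpins passed. With a library left out, 24 to 36 microRNAs and 3 to 5 hairpins passed (5 without Prx1 4 or Prx1 7). miR-223-3p kept its sign in all 27 alternatives (-0.31 to -0.18 with a library left out). Values near 0 changed sign. miR-142a-5p was at 0.017 with library totals, 0.093 with upper quartile factors (which moved the median of all entries to 0.13 and gave 26 higher and 11 lower calls in place of 14 and 18), 0.038 without a filter and -0.16 to 0.076 with a library left out. miR-142a-3p was at -0.065 with voom and -0.068 to 0.20 with a library left out, and the arm ratio of miR-142a at -0.14 to 0.00072. The ratio of miR-223-3p to miR-142a-3p differed by -0.33 to -0.16 with a library left out. None of the 4 arms passed in any alternative except the replicate block given next, and the causes were not tested. A replicate block on the title number moved miR-223-3p from -0.27 to -0.41, past the threshold (edgeR adjusted p = 0.0474, range over its alternatives 0.0474 to 0.895) and put miR-142a-3p at -0.063. With this block Prx1 7 to Prx1 10, whose numbers no Ocn library has, do not enter the fold change. They had 7462 to 8230 CPM of miR-223-3p, below the Prx1 median of 9032 CPM, and their part in the move was not tested. The sources used here do not say whether the numbers pair the libraries. Deviations of the 6 pairs correlated at 0.02 to 0.20, and 1 of 6 Ocn libraries correlated best with its own number. These values show no clear pairing, but weak correlations over 6 pairs cannot exclude it. The paired test that follows leaves out Prx1 7 to Prx1 10, so its differences are over fewer libraries than those of the main test. In the paired sign-flip test with this block, which 6 pairs limit to p = 0.0312, the ratios of miR-223-3p to miR-142a-3p, miR-451a, miR-150-5p and miR-199a-5p differed by -0.35, -0.64, 0.81 and -0.80, and those of miR-142a-3p to miR-150-5p and miR-199a-5p by 1.16 and -0.45, each missing the threshold (exact permutation, adjusted p = 0.0547 to 0.0729). With TMM-scaled CPM, added after seeing the data, rho was 0.91 between the 3p arms and -0.58 between the arms of miR-223. Depth limits miR-223-5p most, at 72 counts in the shallowest library.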

Other observations

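The levels of both 3p arms split by the number in the library's title, an order noticed after the values were seen. Ocn 1 to 3 had 8212 to 9975 CPM of miR-223-3p and Ocn 4 to 6 had 6180 to 7786 CPM. Prx1 1 to 5 had 9835 to 14667 CPM and Prx1 6 to 10 had 6976 to 8230 CPM. miR-142a-3p followed with 39427 to 77658 and 30437 to 35640 CPM in Ocn, and with 39508 to 48716 and 32979 to 36014 CPM in Prx1. Among all 234 entries tested, 0.855% had the lower numbers wholly above the higher ones in both groups, which were these 2 entries, and 0 had the reverse. As the split was seen in these 2 entries, their place in that share was fixed in advance. Their levels also go together (rho 0.95), so they are not independent. The same 2 were found with TMM-scaled CPM. miR-223-5p and miR-142a-5p overlapped between the numbers in at least 1 group. The design text gives 3 male and 3 female mice in Ocn and 5 and 5 in Prx1, but neither the sex of a library nor the meaning of its number is given in the sources used here. No test was made of this split.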
